A study of Mus musculus with 4 samples.

Results

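Heat shock chaperones hold, refold or hand on proteins that have lost their shape, and heat shock factors are the transcription factors that switch their genes on. The set described here holds 10 mouse genes picked by symbol: the HSP70 genes Hspa1a, Hspa1b and Hspa8, the HSP90 genes Hsp90aa1 and Hsp90ab1, the HSP110 gene Hsph1, the small heat shock protein gene Hspb1, the J-domain gene Dnajb1, and the factors Hsf1 and Hsf2. Of these, 9 were read in a table of 30049 genes, 8 averaged 1 TPM or more and were tested, and Hsph1 was not analysed here.

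The table gives RNA levels of wild-type mouse embryos at the 2-cell stage, of the label BDF1*BDF1 F2, from superovulated BDF1 females mated with BDF1 males. Zygotes taken 18 h after hCG, the hormone that triggers ovulation, were grown for 24 h in the embryo medium KSOM, either plain (control, 2 libraries) or with 2% dimethyl sulfoxide added (DMSO, 2 libraries). DMSO is a solvent of drugs and a cryoprotectant. For each group 50 embryos were collected, and nothing says that the replicates came from separate cultures, so p-values measure only the spread between these libraries, which may be technical.

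In the unstressed cell, HSP70 and HSP90 proteins keep HSF1 inactive. When unfolded proteins draw the chaperones away, HSF1 forms trimers, binds heat shock elements made of repeated GAA units and their complement, and raises transcription of the inducible genes. The mouse embryo is known to transcribe Hspa1a and Hspa1b among its first zygotic genes, without heat, and HSF1 supplied by the oocyte is known to be needed for development past the first cleavages.

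The libraries showed the RNA of early embryos. All 13 of 13 markers of the 2-cell embryo had a mean of at least 1 TPM, with sums of 1862 and 1561 TPM in control and of 2801 and 2071 TPM in DMSO. Tcstv3 was the most abundant, at 297 and 209 TPM in control and 716 and 574 TPM in DMSO. These markers went both ways: in the test described below 4 were called higher and 2 lower, beside 6.42% and 14.1% of all genes tested. The 13 oocyte markers summed to 1216 and 799.5 TPM in control and to 3050 and 2342 TPM in DMSO, led by Oosp1. Of 14 cumulus and granulosa cell markers 1 reached a mean of 1 TPM, Cyp11a1 being the most abundant, and they summed to 3.92, 2.69, 5.20 and 3.84 TPM, with Amh and Inhba at 0 in all libraries. The 7 sperm and spermatid markers summed to 2.96 and 3.38 TPM in control and to 13.5 and 8.69 TPM in DMSO, mostly Prm2, with Prm3 and Tnp2 at 0. The 7 trophectoderm markers summed to 90.3 and 87.4 TPM in control and to 36.1 and 43.4 TPM in DMSO, Tfap2c being the most abundant, and the 6 blood markers to 11.0, 4.36, 10.8 and 16.3 TPM, led by Hba-a2, with Hbb-bt at 0. The top 20 genes took 22.1% and 23.6% of the summed deposited TPM in control and 29.4% and 35.1% in DMSO. The oocyte, 2-cell, sperm and trophectoderm sums and this share thus separated the groups, and their part in the results below was not tested.

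DMSO-treated embryos held more RNA of the stress-inducible HSP70 genes Hspa1a and Hspa1b and less of the small heat shock protein gene Hspb1. The level of the constitutive HSP70 gene Hspa8 in control was 2.15 times that in DMSO-treated embryos, a difference that missed the threshold. Hsf1 was at 74.0 ± 7.60 TPM in control and at 82.8 ± 17.1 TPM in DMSO (SD, n = 2 each). The test was limma, a linear model in which genes share an estimate of variance, fitted to log2(TPM + 1), with p-values adjusted by Benjamini-Hochberg over all 12038 genes tested. Changes on that scale are understated for genes at low levels. A gene was called at an adjusted p-value under 0.05.

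Of the 8 genes tested 3 were called, 2 higher and 1 lower. Over all genes tested 20.5% were called, 6.42% higher and 14.1% lower, and under quantile normalization 8.94% higher and 9.31% lower. The 2 DMSO libraries lay wholly above or below the 2 control libraries for 6 of the 8 genes, 3 in each direction. This was so for 69.8% of all genes tested (31.1% higher and 38.7% lower in DMSO), so that absence of overlap alone was common in these libraries. The median log2 fold change was 0.31 over the 8 genes and -0.09 over all genes tested. The median of the 8 genes was 0.56 under quantile normalization, 0.16 without control replicate 1 and 0.023 without DMSO replicate 1. For any 1 gene, 2 libraries against 2 allow no exact permutation p below 0.333, and every call thus rests on the variance shared between genes. With 1 library left out at a time, log2 fold changes lay between 1.12 and 1.79 for Hspa1a and between 1.63 and 2.04 for Hspa1b. For Hspb1, the third gene called, they lay between -2.33 and -1.64. Most of these fits, which leave a group with a lone library, kept no call, of these genes or of any other gene. With no filter on low values limma called 0 genes, 5368 having an unadjusted p-value under 0.05.

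**Figure D1:**
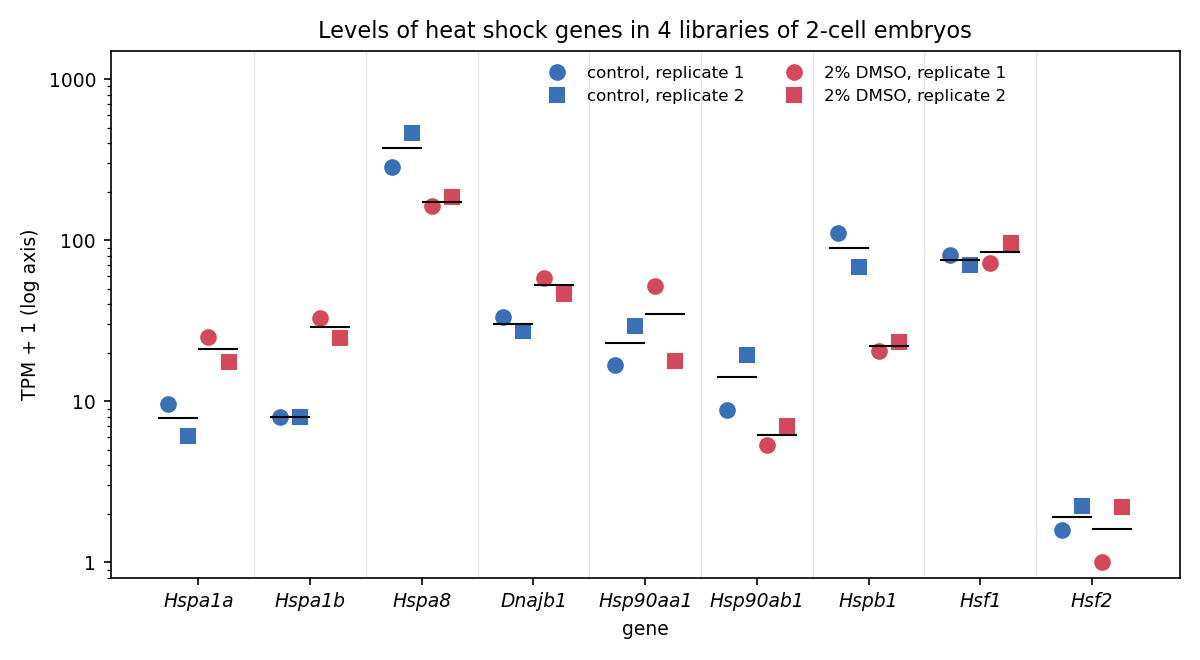
Level of each gene in each library as TPM + 1 on a log axis, with circles for replicate 1, squares for replicate 2, blue for control, red for 2% DMSO and a black line for the mean of each group. The DMSO libraries lie above the control libraries for Hspa1a, Hspa1b and Dnajb1 and below them for Hspa8, Hsp90ab1 and Hspb1, and they overlap for Hsp90aa1, Hsf1 and Hsf2.

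Hspa1a and Hspa1b encode the HSP70 proteins that heat and other stress induce, and they lie close together on chromosome 17 of GRCm38, Hspa1a from 34969190 to 34972156 and Hspa1b from 34956436 to 34959238, both on the minus strand and both with a single exon. Their promoters are shown because both genes were called higher, and both promoters hold letters of the form that heat shock factors are known to bind. The 250 bases before each start site, from RefSeq on GRCm38.p6, are chr17:34972157-34972406 for Hspa1a and chr17:34959239-34959488 for Hspa1b, written 5′ to 3′ on the minus strand, with capitals for GAANNTTC.
Hspa1a: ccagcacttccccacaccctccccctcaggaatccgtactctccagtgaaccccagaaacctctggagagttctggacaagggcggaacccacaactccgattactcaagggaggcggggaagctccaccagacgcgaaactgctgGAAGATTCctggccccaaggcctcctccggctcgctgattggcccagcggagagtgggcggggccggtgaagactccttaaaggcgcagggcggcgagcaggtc
Hspa1b: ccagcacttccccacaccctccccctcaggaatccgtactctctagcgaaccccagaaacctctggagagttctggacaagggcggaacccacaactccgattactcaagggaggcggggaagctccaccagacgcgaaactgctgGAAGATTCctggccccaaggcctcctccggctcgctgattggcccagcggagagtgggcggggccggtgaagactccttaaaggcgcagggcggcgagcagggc
The promoters were identical at 247 of 250 bases. Counted from 1 at the 5′ end, with the base of Hspa1a first, they differed by C44T, T47C and T249G. Both held the same element, GAAGATTC, which begins 104 bases before the start site. Of 32851 promoter windows of 300 bases in the table, 15.1% held GAANNTTC or TTCNNGAA, each of which is its own reverse complement, so that a search of one strand covers both. A longer form, in which a further unit follows at the same spacing and which thus contains the shorter, was searched on both strands. It was in 0.603% of the windows and in 0 of the 6 windows matched to these genes. A match of letters is not evidence of binding, and no binding was measured.

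Control embryos held 8.64 (replicate 1) and 5.04 TPM (replicate 2) of Hspa1a, and treated embryos 23.9 and 16.6 TPM. Both DMSO libraries were above both control libraries, and the DMSO mean was 2.96 times the control mean. On the log2 scale it rose by 1.46 (limma adjusted p = 0.0393, SE 0.37). Of Hspa1b, control embryos held 7.01 and 6.96 TPM and treated embryos 31.7 and 23.7 TPM, again with no overlap, and the DMSO mean was 3.97 times the control mean. Its rise of 1.83 on the log2 scale (limma adjusted p = 0.0209, SE 0.30) was the highest of the 8 genes, and 2.27% of all genes tested had a higher one.

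The split of reads between these genes is an estimate, because kallisto, the program behind the table, divides reads that match several transcripts. The coding sequences were 99.6% identical over 1926 aligned bases, and 88.4% of the 31-base words of the Hspa1a coding sequence occurred in Hspa1b. In the 3′ UTR no word was shared, so reads there can tell the genes apart. The sum of Hspa1a and Hspa1b was 15.6 and 12.0 TPM without DMSO and 55.6 and 40.3 TPM with it, higher by 1.72 on the log2 scale (limma adjusted p = 0.0221, SE 0.31). Hspa1a made up 55.2% and 42.0% of this sum in control and 43.0% and 41.1% in DMSO, so the estimated split was much the same in 3 of the 4 libraries.

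A further row takes reads from the same place. Gm20481, annotated as protein coding from 34969912 to 34972136 on chromosome 17, lies on the plus strand inside Hspa1a, shares 564 exonic bases with it, and has 95.5% of its 31-base words in common with it. Its values were 2.40 and 2.80 TPM without DMSO and 43.4 and 26.9 TPM with it, higher by 3.29 on the log2 scale (limma adjusted p = 0.0181, SE 0.35). The quantification is not stated to use strand, so reads from the stretch that Hspa1a and Gm20481 share cannot be told apart. With the 3 rows summed, the levels were 18.0 and 14.8 TPM in control and 99.1 and 67.2 TPM in DMSO, higher by 2.25 on the log2 scale (limma adjusted p = 0.0181, SE 0.31). TPM divides by transcript length, and Gm20481 spans fewer bases than the 2967 of Hspa1a. The same read adds more TPM in the shorter row, so this sum may overstate both the level and the rise. The size of the rise therefore depended on which rows were added, while its direction did not.

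**Figure D2:**
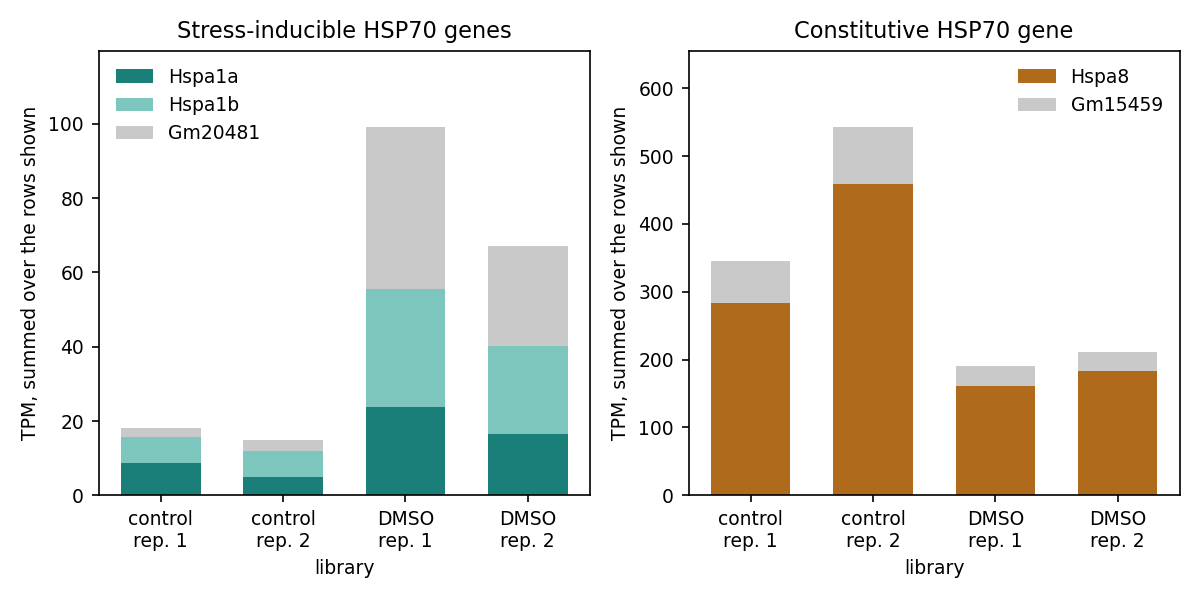
TPM in each library, stacked, for Hspa1a, Hspa1b and the overlapping row Gm20481 (left) and for Hspa8 and its processed pseudogene Gm15459 (right), on linear axes of different range that start at 0. The stack at left is at most 18.0 TPM in control and at least 67.2 TPM in DMSO, and the stack at right is higher in both control libraries than in both DMSO libraries.

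Hspa8 encodes HSC70, the HSP70 of unstressed cells, which folds new proteins and uncoats clathrin vesicles (chromosome 9, 40800984 to 40810087, plus strand). It was the most abundant of these genes in every library, with 284 and 459 TPM in control and 162 and 184 TPM in DMSO. The groups did not overlap, but the control libraries differed widely from each other. The log2 fold change was -1.06 (95% confidence interval -1.80 to -0.33, limma adjusted p = 0.0526), which missed the threshold. With the replicate number as a block, for which the labels give no shared source, Hspa8 was called (limma adjusted p = 0.00765). In that fit 42.6% of all genes tested were called. Hspa8 shares many of its reads' words with other rows. Of its 31-base words 40.5% occur in other genes, most of them in processed pseudogenes. The pseudogene Gm15459, with 91.9% of its words in Hspa8, fell by 1.31 on the log2 scale (limma adjusted p = 0.0289), with 61.7 and 83.5 TPM in control and 28.9 and 27.7 TPM in DMSO. With the rows of Gm15459 and Gm8355 added to Hspa8 the log2 fold change was -1.11 (limma adjusted p = 0.0449), on the other side of the threshold. The TPM of Hspa8 was 18.2 and 38.3 times that of Hspa1a and Hspa1b together in control and 2.91 and 4.56 times in DMSO. Constitutive HSP70 RNA thus still exceeded inducible HSP70 RNA in both DMSO libraries, also against the 99.1 and 67.2 TPM reached with Gm20481 counted. The 3 HSP70 genes together were at 299.7 and 471 TPM in control and at 217 and 224 TPM in DMSO.

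Dnajb1 encodes HSP40, the J-domain partner that delivers substrates to HSP70 and speeds its ATP hydrolysis (chromosome 8, 83608193 to 83612653, plus strand). Its level was 32.2 and 26.2 TPM in control and 57.6 and 45.3 TPM in DMSO. Both DMSO libraries lay above both control libraries, by a smaller factor than for Hspa1a and Hspa1b. The log2 fold change was 0.79 (95% confidence interval 0.12 to 1.47, limma adjusted p = 0.0864), and under quantile normalization it was 1.05 (limma adjusted p = 0.0426). With the replicate number as a block Dnajb1 was also called (limma adjusted p = 0.0229). Only 0.444% of its words are shared with other genes.

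Hspb1 encodes the small heat shock protein HSP25 (HSP27 in human), which holds unfolded proteins without using ATP and binds actin (chromosome 5, 135887919 to 135889563, plus strand). Control embryos held 109 and 67.2 TPM of it, and treated embryos 19.5 and 22.4 TPM. The control mean was 4.21 times the DMSO mean, and the lower control library was still well above both DMSO libraries. Its log2 fold change of -1.98 (limma adjusted p = 0.0207, SE 0.32) was the lowest of the 8 genes, and 2.98% of all genes tested had a lower one. The processed pseudogene Hsp25-ps1, with 89.8% of its words in Hspb1, was at most at 1.79 TPM, and adding it gave a log2 fold change of -1.95. The promoter of Hspb1, a gene that moved the other way, is shown so that its elements can be set beside those of Hspa1a and Hspa1b. It is chr5:135887669-135887918 on the plus strand of GRCm38.p6, with capitals for GAANNTTC.
Hspb1: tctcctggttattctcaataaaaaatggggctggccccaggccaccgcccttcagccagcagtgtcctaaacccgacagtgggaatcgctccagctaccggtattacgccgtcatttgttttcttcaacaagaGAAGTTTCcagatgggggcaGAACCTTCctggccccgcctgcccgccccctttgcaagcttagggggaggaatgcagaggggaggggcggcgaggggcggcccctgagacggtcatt
This promoter held 2 elements of that form, GAAGTTTC and GAACCTTC, which begin 117 and 97 bases before the start site. Letters of this form were in the nearly identical promoters of Hspa1a and Hspa1b and in that of Hspb1. Whether they had a part in any of these changes was not tested. No element of either form was in the windows of Dnajb1 or Hsf2, which says only that these letters are not there. Hsf1, Hsp90aa1, Hsp90ab1 and Hspa8 were not matched.

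The HSP90 genes encode the cytosolic chaperones that mature kinases and steroid receptors, Hsp90aa1 being the more inducible and Hsp90ab1 the more constitutive one. Hsp90aa1 (chromosome 12, 110690605 to 110702728, minus strand) was at 15.8 and 28.2 TPM in control and at 51.1 and 16.8 TPM in DMSO. The high value came from DMSO replicate 1 alone, and DMSO replicate 2 lay between the control libraries. Its log2 fold change was 0.46 (95% confidence interval -0.85 to 1.77, limma adjusted p = 0.549), and without DMSO replicate 1 it was -0.31. Hsp90ab1 (chromosome 17, 45567775 to 45573271, minus strand) was at 7.76 and 18.4 TPM in control and at 4.35 and 5.997 TPM in DMSO. The groups did not overlap, but control replicate 1 was close to the treated embryos. The log2 fold change was -1.09 (95% confidence interval -2.16 to -0.02, limma adjusted p = 0.119). It was -1.66 without control replicate 1 and -0.52 without control replicate 2. With the replicate number as a block Hsp90ab1 was called (limma adjusted p = 0.0257). Hsp90aa1 was above Hsp90ab1 in every library, by 2.03 and 1.53 times in control and by 11.7 and 2.81 times in DMSO. Of the words of Hsp90aa1 51.4% occur in other genes, against 8.07% for Hsp90ab1, so the split of reads is less certain for Hsp90aa1.

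The heat shock factors were followed at the RNA level only, whereas HSF1 is switched on in the protein, by forming trimers and by phosphorylation. Hsf1 (chromosome 15, 76477422 to 76501913, plus strand) was at 79.3 and 68.6 TPM in control and at 70.7 and 94.9 TPM in DMSO. The groups overlapped, and the log2 fold change was 0.15 (95% confidence interval -0.51 to 0.81, limma adjusted p = 0.703), which leaves room for a change of less than 2-fold either way. Hsf2 (chromosome 10, 57486385 to 57513135, plus strand), a factor known for roles in development and the germ line, was at 0.587 and 1.23 TPM in control and was listed at 0 and at 1.21 TPM in DMSO. Its mean was under 1 TPM and it was not tested. TPM values keep no depth, so its 0 cannot be read as absence.

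**Figure D3:**
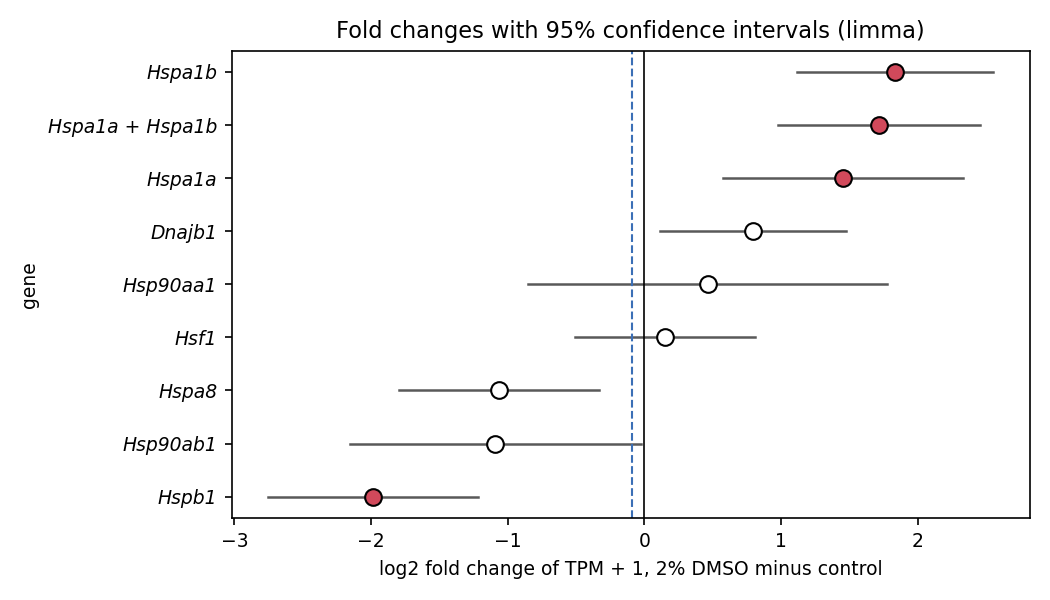
Log2 fold change of TPM + 1 (2% DMSO minus control) of the 8 genes tested and of Hspa1a and Hspa1b summed, with 95% confidence intervals from limma as lines. Filled circles have an adjusted p-value under 0.05, the dashed line marks the median of all genes tested (-0.09), and the intervals of Hsp90aa1 and Hsf1 cross 0.

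In the control libraries the order of mean levels ran from Hspa8 (372 ± 124 TPM) through Hspb1 (88.1 ± 29.6), Hsf1 (74.0 ± 7.60), Dnajb1 (29.2 ± 4.27), Hsp90aa1 (22.0 ± 8.79) and Hsp90ab1 (13.1 ± 7.52) to Hspa1b (6.98 ± 0.0346), Hspa1a (6.84 ± 2.54) and Hsf2 (0.910 ± 0.457; SD, n = 2 each). The ranges of Hspb1 and Hsf1, of Dnajb1 and Hsp90aa1, of Hsp90aa1 and Hsp90ab1, and of Hspa1b and Hspa1a met or overlapped. In the DMSO libraries the order was Hspa8 (173 ± 15.4 TPM), Hsf1 (82.8 ± 17.1), Dnajb1 (51.4 ± 8.68), Hsp90aa1 (34.0 ± 24.2), Hspa1b (27.7 ± 5.68), Hspb1 (20.9 ± 2.10), Hspa1a (20.2 ± 5.19), Hsp90ab1 (5.18 ± 1.16) and Hsf2 (0.606 ± 0.857; SD, n = 2 each). Here the ranges of Dnajb1 and Hsp90aa1, of Hsp90aa1 and Hspa1b, and of Hspb1 and Hspa1a overlapped, and those of the other neighbours in the order did not. Together the 9 genes took 0.0709% and 0.0872% of the summed deposited TPM in control and 0.0544% and 0.0514% in DMSO. In pooled embryos, fewer transcripts in each cell and fewer cells that hold them cannot be told apart.

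Genes that act with these chaperones were read from lists of family members and partners. Of 114 such genes 112 were in the table and 90 were tested, of which 20 were called lower and 1 higher in DMSO-treated embryos, or 22.2% and 1.11%, beside 14.1% and 6.42% of all genes tested. Under quantile normalization 17 were called lower and 4 higher (Hsbp1, Cdc37l1, Dnajc13 and Hspe1), beside 9.31% and 8.94% of all genes tested in that fit. Under median-ratio scaling 18 were called lower and 2 higher (Hsbp1 and Hspa4l), where 18.4% of all genes tested were called in either direction. The median log2 fold change of the 90 genes was -0.35 in the main test and -0.21 under quantile normalization. Hspa14 and Cdc37 were not analysed here.

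Among the J-domain proteins, which bring substrates to HSP70, 4 of 12 DNAJA and DNAJB genes tested and 5 of 26 DNAJC genes tested were called, all of them lower on the deposited values, whereas Dnajc13 was called higher under quantile normalization. These were 33.3% and 19.2% of the genes tested, beside 14.1% of all genes called lower, and 5 and 7 genes of these lists lay at higher levels in DMSO. Dnaja1, a cytosolic partner of HSC70, fell from 421 ± 94.8 to 203 ± 9.80 TPM (SD, n = 2; log2 fold change -1.03, limma adjusted p = 0.0414). Dnajb6, which keeps aggregation-prone proteins soluble, fell from 357 ± 14.9 to 130 ± 16.6 TPM (log2 fold change -1.46, limma adjusted p = 0.0210). Dnajb11 and Dnajb12, J-domain proteins of the endoplasmic reticulum, had log2 fold changes of -1.28 and -1.47 (limma adjusted p = 0.0466 and 0.0383). The lowest value of all lists was that of Dnajc15, a protein of the mitochondrial inner membrane, at 235 and 343 TPM in control and 27.6 and 53.2 TPM in DMSO (log2 fold change -2.85, limma adjusted p = 0.0181). It was followed in its list by Dnajc5, the cysteine string protein, at -2.23. Dnajc7, which binds HSP70 and HSP90, and Dnajc12 were each at -1.32 (limma adjusted p = 0.0239 and 0.0370). Among the abundant genes that were not called were Dnajc21 (467 ± 12.3 and 305 ± 1.88 TPM), Dnajb9 (265 ± 57.7 and 281 ± 44.9 TPM) and Dnajc8 (153 ± 10.9 and 198 ± 44.0 TPM), in control and DMSO (SD, n = 2).

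Nucleotide exchange factors of HSP70 release ADP and with it the substrate. Of 12 genes for such factors and for other co-factors of HSP70, 3 were called lower and 0 higher, or 25.0% and 0% beside 14.1% and 6.42% of all genes tested, the levels of the 12 lying lower in 9 and higher in 3. The called genes were Hspbp1 (44.6 ± 4.19 to 11.2 ± 5.86 TPM, log2 fold change -1.99, limma adjusted p = 0.0250), Bag1 (215 ± 2.00 to 82.5 ± 23.3 TPM, log2 fold change -1.40, limma adjusted p = 0.0272) and the mitochondrial Grpel1 (28.9 ± 2.39 to 10.6 ± 1.17 TPM, log2 fold change -1.37, limma adjusted p = 0.0276). Bag5 was at 138 ± 32.9 and 157 ± 26.0 TPM and St13 at 51.7 ± 0.943 and 42.0 ± 11.3 TPM in control and DMSO. In the HSP70 family outside the genes above 1 of 8, or 12.5%, was called, beside 20.5% of all genes tested, and 5 of the 8 lay at higher levels in DMSO, with a median log2 fold change of 0.18. The called gene was Hspa4, an HSP110-type exchange factor, with 74.5 and 92.3 TPM in control and 15.0 and 26.8 TPM in DMSO (log2 fold change -1.99, limma adjusted p = 0.0217). Hspa5, the HSP70 of the endoplasmic reticulum, was at 171 ± 37.7 and 193 ± 18.1 TPM and Hspa9, that of mitochondria, at 129 ± 11.3 and 98.2 ± 7.88 TPM, neither being called.

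HSP90 co-chaperones were called lower for 4 of 17 genes, or 23.5%, and higher for 0, beside 14.1% and 6.42% of all genes tested, and 10 lay lower and 7 higher. Ppid, a cyclophilin, held 36.5 and 36.7 TPM in control and 6.04 and 11.9 TPM in DMSO (log2 fold change -1.98, limma adjusted p = 0.0227). Sugt1, an adaptor of HSP90, fell from 381 and 495 to 114 and 162 TPM (log2 fold change -1.67, limma adjusted p = 0.0220). Fkbp4 and Ttc4 were at -1.61 and -1.59 (limma adjusted p = 0.0382 and 0.0281), Fkbp4 at under 6 TPM throughout. Ptges3, the co-chaperone p23, was at 379 ± 67.5 and 300 ± 63.5 TPM and Stip1, which links HSP70 to HSP90, at 257 ± 19.7 and 164 ± 23.3 TPM, and neither was called. The only other HSP90 gene tested, the mitochondrial Trap1, was at 18.6 ± 4.99 and 15.3 ± 5.83 TPM.

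In the test described above, the single gene of the lists called higher was Hsbp1, which binds HSF1 and restrains it. It rose from 89.6 and 65.8 to 188 and 163 TPM (log2 fold change 1.18, limma adjusted p = 0.0334). It was not called when no trend in the variance was fitted, nor with no filter on low values, nor in any fit that left 1 library out. In the same list of 5 tested partners 1 was called in each direction, or 20% each beside 6.42% higher and 14.1% lower over all genes. Hikeshi, which carries HSP70 into the nucleus on stress, fell from 65.4 and 36.4 to 20.3 and 13.8 TPM (log2 fold change -1.49, limma adjusted p = 0.0392). Hsf2bp, a partner of HSF2 that also acts in meiosis, was at 16.7 and 3.94 TPM in control and at 36.8 and 17.1 TPM in DMSO and was not called. Of 9 mitochondrial chaperones and proteases, 6 of them at lower and 3 at higher levels in DMSO, 2 were called, both lower, or 22.2% beside 14.1% of all genes tested, the protease Clpp (89.4 ± 4.75 to 17.5 ± 8.21 TPM, log2 fold change -2.37, limma adjusted p = 0.0188) and its partner Clpx (83.3 ± 16.1 to 27.5 ± 12.0 TPM, log2 fold change -1.62, limma adjusted p = 0.0320). Hspe1, the co-chaperonin HSP10, was at 80.6 and 77.6 TPM in control and at 183 and 108 TPM in DMSO (log2 fold change 0.83, limma adjusted p = 0.104). Of 10 further small heat shock protein genes 8 were under a mean of 1 TPM. The others were Hspb11 (6.97 ± 0.0519 and 4.44 ± 0.192 TPM) and Hspb6 (0.921 ± 0.575 and 4.74 ± 3.38 TPM), neither being called.

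**Figure D4:**
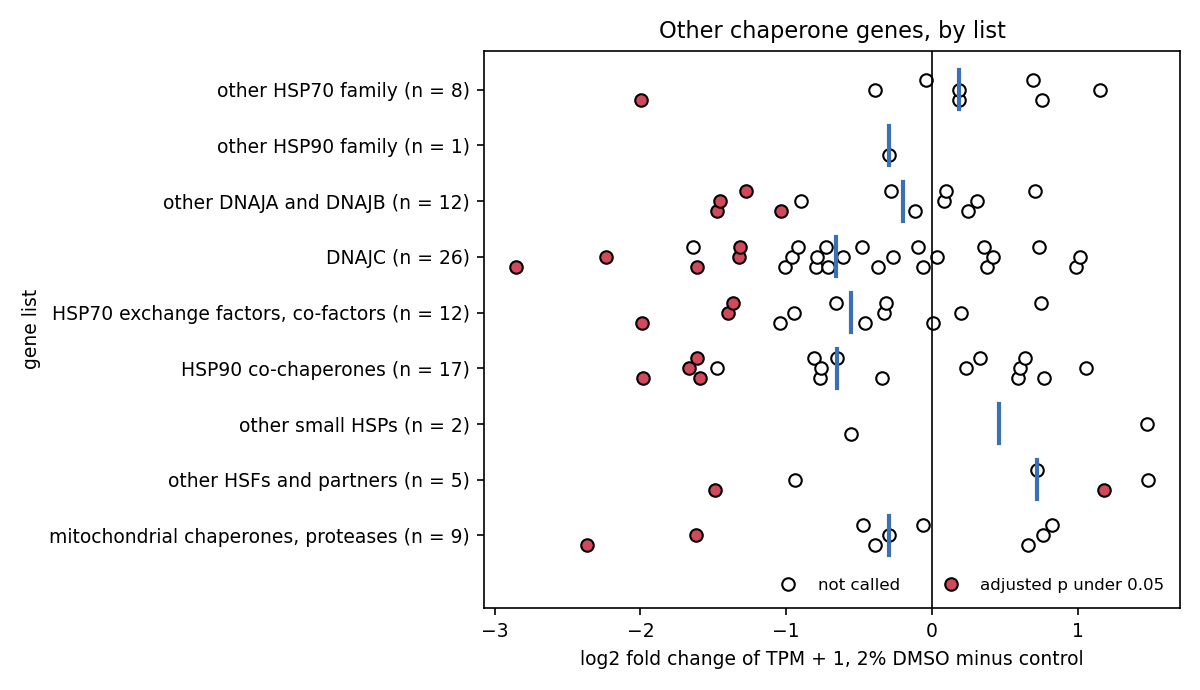
Log2 fold change of TPM + 1 (2% DMSO minus control) of the tested genes of each list of chaperone families and partners, with n genes tested per list and 2 genes, Hspa9 and Trap1, standing in 2 lists. The blue bar is the list's median, and filled circles, for genes with an adjusted p-value under 0.05, lie below 0 except for Hsbp1, at 1.18.

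The genes whose pattern over the 4 libraries was nearest that of Hspa1b, by the Euclidean distance of centred log2(TPM + 1) values among 5666 tested genes averaging 10 TPM or more, were Max (distance 0.0825), a partner of MYC, Sh3bgrl3 (0.0838) and Pomgnt1 (0.178). Max was at 15.3 and 14.6 TPM in control and at 61.8 and 45.6 TPM in DMSO. The nearest to Hspb1 were Gm10557 (0.164), Wdr55 (0.208) and Ltv1 (0.223), the latter a factor in the making of the small ribosomal subunit, at 157 and 120.3 TPM in control and 30.4 and 35.9 TPM in DMSO. Hspa1a was not among the 3 genes nearest to Hspa1b. Over only 4 libraries such a distance describes these libraries and nothing more.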

How the data were processed

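RNA of 2 control and 2 DMSO libraries of 2-cell embryos was amplified and sequenced by the authors. The deposited values are TPM, reads scaled by transcript length and library total, which the authors obtained with kallisto at default settings, using Ensembl transcripts of GRCm38, and collapsed to genes with tximport. They sum to 768174 and 780527 in control and 772487 and 799166 in DMSO and keep no depth, so no counting error or floor was derived. The study's count test was not repeated on TPM.

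Libraries were grouped by their labels. The test was limma 3.58.1 (R 4.3.3) with a trend and no block, on log2(TPM + 1) of genes averaging 1 TPM or more, with Benjamini-Hochberg adjustment. The steps were tested on simulated data. The alternatives were a pseudocount of 0.1, no filter or a mean of 5 TPM, no trend, median-ratio scaling, quantile normalization, a replicate block, near copies summed and each library left out. Symbols came from GENCODE M21, which named 29589 identifiers, and 31-base words were counted on either strand in its transcripts. RefSeq promoters matched 5 of 9 genes. Python 3.11.15, pandas 2.3.3 and matplotlib 3.10.9 were used.

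The members, lists and tests were chosen with earlier results of these data known. Named beside the members were, in each list, the 2 highest and 2 lowest called genes and the 3 most abundant, the 3 genes nearest in pattern to the highest and lowest member, and near copies with at least 50% of their words shared and a mean of 1 TPM. Hsp25-ps1 and Gm8355, below that mean, are named outside the rule because they entered the sums. Cdc37l1, Dnajc13 and Hspa4l were named after their values were seen.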

Additional observations from a re-analysis of the deposited data

How the results depend on the processing

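Against 2470 genes called in all, 3 among the 8 heat shock genes and 21 among the partner lists, the replicate number as a block gave 5132 (42.6% of those tested), 6 and 42, the block with quantile normalization 4732 (39.3%), 6 and 40, and the block with median-ratio scaling 5037 (41.8%), 6 and 42. Of the partners, 11, 14 and 13 were called higher and 31, 26 and 29 lower in these 3 fits. For all genes these fits are given here in either direction only, so the partner counts by direction have no such share beside them. The heat shock genes added by each were Hspa8, Hsp90ab1 and Dnajb1. Same-numbered libraries deviated together across genes (r = 0.35), but the labels give no shared source for a pairing. With no filter on low values 0 genes were called at each of the 3 levels, although 5368 genes had an unadjusted p-value under 0.05, and Hspa1a and Hspa1b summed stayed at 1.72 (limma adjusted p = 0.102). With each library left out in turn, which leaves 1 residual degree of freedom and takes the lone library to vary like the others, between 0 and 1883 genes, between 0 and 2 of the heat shock genes and between 0 and 21 of the partners were called. In the 3 fits that called 0, between 2602 and 3745 genes had an unadjusted p-value under 0.05. The summed value then lay between 1.49 and 1.95, that of Hsp90aa1 between -0.31 and 1.23 and that of Hsf1 between -0.0604 and 0.36, while the other 6 genes kept their direction. With the smaller pseudocount, the filter at 5 TPM, no trend, median-ratio scaling or quantile normalization no direction of the 8 genes changed, nor did that of the 5 genes for which near copies were summed. The calls of Hspa1a, Hspa1b and Hspb1 were kept under each, Hspa8 was added with the filter at 5 TPM (limma adjusted p = 0.0382) and with near copies summed (limma adjusted p = 0.0449), and Dnajb1 with quantile normalization (limma adjusted p = 0.0426).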
